A study of Mus musculus with 16 samples.

Results

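Picoxystrobin, pyraclostrobin and trifloxystrobin were each compared at their highest and lowest concentrations, 1000 and 30 nM, to find what a high concentration of a strobilurin did in common to gene expression. The comparison uses 6 of the 16 RNA-seq libraries of the series, selected by the compound and concentration in their labels. There was 1 library of each compound at 1000 nM and 1 at 30 nM. The DMSO libraries stayed out of the test, so that the low concentration of the same compound served as the reference. All groups were C17.2α cells, a neural line from mouse cerebellum made to overexpress the thyroid hormone receptor TRα1 stably, kept in medium with serum stripped by charcoal, without T3, and exposed for 24 h to the compound dissolved in DMSO. As a model this is 1 engineered line, and no library was repeated. The 3 compounds stood in as the replicates of a concentration, so each error of a fold change below holds the differences between compounds as well as those between cultures. Nothing in the labels tells cultures from sequencing libraries.

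Strobilurins are fungicides that block respiration at complex III of the mitochondrial electron transport chain, where they occupy the site of cytochrome b that oxidizes ubiquinol. Cytochrome b is encoded by mitochondrial DNA, and the other subunits of the complex by nuclear genes. The compounds share an aromatic bridge and differ in the group that binds the enzyme, which is a methoxyacrylate in picoxystrobin, a methoxycarbamate in pyraclostrobin and an oximinoacetate in trifloxystrobin. In many cell types, blocked respiration is known to affect the integrated stress response, in which the factor ATF4 switches on genes for amino acid supply. The p53 pathway is another common stress response, in which p53 switches on genes that stop the cell cycle, repair DNA or start apoptosis.

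The total count ranged from 13044534 to 17278217 in the 6 libraries, and 9786 genes had an average over 10 CPM, the count divided by the TMM-adjusted library size. Mitochondrially encoded transcripts took 10.7%, 11.6% and 9.38% of the counts at 30 nM with picoxystrobin, pyraclostrobin and trifloxystrobin. At 1000 nM the shares were 7.93%, 9.50% and 9.44%, so that of trifloxystrobin was not lower. The DMSO libraries were at 9.30% and 9.46%. The log2 difference between 1000 and 30 nM correlated across 9753 genes with the GC content of the transcript, where picoxystrobin had r = 0.593, pyraclostrobin -0.243 and trifloxystrobin 0.241. A fit corrected for GC content and length was therefore run beside the main one. Of 10 neural progenitor markers 6 were over 10 CPM, and their sum was 3451 to 4008 CPM at 30 nM and 3351 to 3985 CPM at 1000 nM, although Pax6 and Prom1 were under 1 CPM. Of 10 neuron markers 8 were under 1 CPM, with Rbfox3, Dcx, Stmn2 and Neurod1 at 0. The microglial markers Itgam, Ptprc and Tyrobp were also at 0, and the sum of the 8 markers of that list was 5.18 to 7.79 CPM at 30 nM and 7.61 to 11.2 CPM at 1000 nM. The 9 fibroblast and pericyte markers, which include Acta2 and collagen genes, summed to 6580 to 7862 CPM at 30 nM and 4293 to 6809 CPM at 1000 nM. In bulk samples, fewer cells of a type and less RNA per cell cannot be told apart. The sums were 360 to 371 and 293 to 411 CPM for astrocyte, 1438 to 1494 and 1464 to 1711 CPM for oligodendrocyte, 8.39 to 10.7 and 9.77 to 14.3 CPM for endothelial markers, at 30 and 1000 nM.

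No gene passed the test of edgeR, a quasi-likelihood test with the compound as block and Benjamini-Hochberg adjustment (0% of genes, lowest adjusted p = 0.113). At an unadjusted p under 0.05 there were 707 genes higher at 1000 nM (7.22%) and 363 lower (3.71%). DESeq2, run on the same counts and design, called 39 genes higher (0.399%) and 9 lower (0.0920%). All 48 had the same direction in the 3 compounds and an unadjusted p under 0.05 in edgeR. Of all genes, 18.5% were higher in the 3 compounds and 15.1% lower. The same 6 libraries chose the 48 genes, so neither trait is independent support for them. In the libraries at 300 and 100 nM, which the comparison did not use, 36 of the 39 were higher at 300 nM, against 55.7% of all 9716 genes tested there, and 6 of the 9 were lower, against 44.3%. A fold change below is the edgeR estimate over the 3 compounds with its standard error, and levels are CPM. Since the test of edgeR called nothing, the genes below are given by their values.

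**Figure D1:**
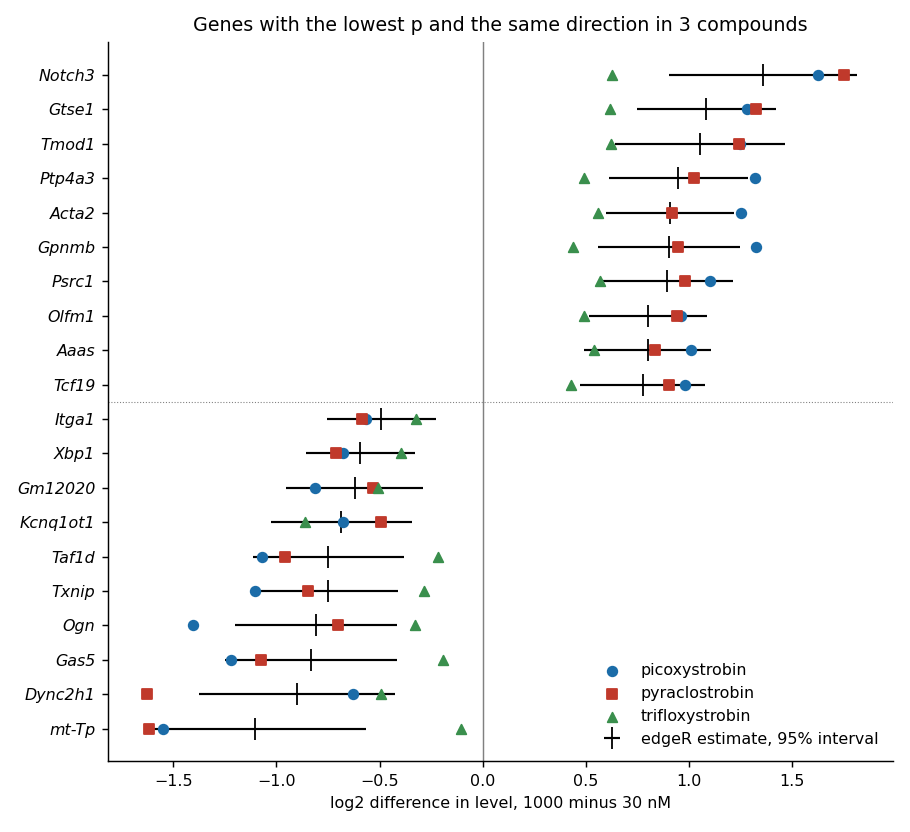
Log2 fold change between 1000 and 30 nM, with its 95% interval, of the 10 higher and the 10 lower genes with the lowest p among those of 1 direction in the 3 compounds. The small points are the 3 compounds. Each interval lies on 1 side of 0, and the trifloxystrobin point is the nearest to 0 for every gene but Kcnq1ot1.

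The genes with the lowest p included members of the p53 pathway. Gtse1 (chr15:85859745-85876573, GRCm38), whose protein binds p53 and counters its action in the G2 phase, was at 52.7 CPM with picoxystrobin, 54.7 with pyraclostrobin and 40.6 with trifloxystrobin at 30 nM, and at 128, 137 and 62.4 CPM at 1000 nM. The groups did not overlap, and trifloxystrobin showed the smallest step. The log2 fold change was 1.08 ± 0.15 (SE, n = 3 compounds; adjusted p = 0.113 by edgeR and 4.00e-06 by DESeq2). With the first of the DMSO libraries at 66.1 and the second at 50.7 CPM, the lowest level at 1000 nM was between them. The second holds the same counts as azoxystrobin at 100 nM, which also bears on the DMSO levels given below.

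Notch3 (chr17:32120820-32166852), a receptor of the Notch pathway, was at 14.8, 17.0 and 15.5 CPM at 30 nM and at 46, 57.8 and 23.9 CPM at 1000 nM, in the order picoxystrobin, pyraclostrobin and trifloxystrobin that is kept below. The 30 nM libraries were close together and all below those at 1000 nM. Its log2 fold change was 1.36 ± 0.21 (adjusted p = 0.113 by edgeR and 1.45e-05 by DESeq2). The gene Gm17276 overlaps Notch3 on the opposite strand, and whether reads were counted by strand is not given in the sources used here. Of 8 members of the Notch pathway tested, 2 were higher at an unadjusted p under 0.05 and 1 was lower, with a median of -0.02. The shares of all genes were 7.22% and 3.71%.

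Acta2 (chr19:34241090-34255590), the smooth muscle actin, was at 72.4, 65.7 and 126 CPM at 30 nM and at 173, 124 and 185 CPM at 1000 nM, so that the groups overlapped through trifloxystrobin at 30 nM. The log2 fold change was 0.91 ± 0.14 (adjusted p = 0.113 by edgeR and 4.24e-05 by DESeq2). It was also the only gene that DESeq2 called in both steps of concentration, as the difference between 300 and 100 nM was 0.85 ± 0.12 (adjusted p = 6.79e-09 by DESeq2). Tagln and Rgs5, other contractile and pericyte markers, stayed under 1 CPM.

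Other genes called higher by DESeq2 included Ptp4a3, Olfm1, Gpnmb, Ngfr and Gfra1. Ptp4a3, a phosphatase linked to cell migration, was at 66.1, 93.4 and 73.4 CPM at 30 nM and at 165, 189.8 and 103 CPM at 1000 nM. Olfm1, a secreted olfactomedin of neural tissue, was at 101, 104 and 86.9 CPM and then at 196, 199 and 122 CPM. Neither gene overlapped between the groups. Gpnmb, a glycoprotein of lysosomes and the plasma membrane, was 0.90 ± 0.16 higher on the log2 scale, Ngfr, the low-affinity neurotrophin receptor, 0.71 ± 0.16 higher, and Gfra1, a receptor for glial cell line-derived neurotrophic factor, 0.82 ± 0.16 higher. Their DESeq2 adjusted p-values were 0.000184, 0.0116 and 0.0298. Tmod1, which caps actin filaments, was 1.05 ± 0.19 higher by edgeR, at 5.88 to 7.84 CPM at 30 nM and 12.1 to 14.6 CPM at 1000 nM, and DESeq2 gave it no adjusted p because of its low count.

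Among the genes lower at 1000 nM, Xbp1 (chr11:5520659-5525893), a transcription factor of the unfolded protein response, was at 193, 183 and 241 CPM at 30 nM and at 121, 112 and 183 CPM at 1000 nM. The level was lower at 1000 nM with every compound, and the groups overlapped because 1 library of each was at 183 CPM. The log2 fold change was -0.59 ± 0.12 (adjusted p = 0.180 by edgeR and 0.00537 by DESeq2). Txnip (chr3:96557957-96561883), which binds thioredoxin and restrains glucose uptake, was at 144, 111 and 73.0 CPM and then at 67.1, 61.8 and 59.9 CPM, with a log2 fold change of -0.75 ± 0.16 (adjusted p = 0.182 by edgeR and 0.00622 by DESeq2). Ogn, a small matrix proteoglycan, had the widest step with picoxystrobin, from 607 to 229 CPM, against 530.4 to 326 CPM with pyraclostrobin and 665 to 530.1 CPM with trifloxystrobin. Cenpp lies opposite to Ogn on the other strand. Gas5 and Taf1d, which both host small nucleolar RNAs in their introns, were at -0.83 ± 0.19 and -0.75 ± 0.17 on the log2 scale (adjusted p = 0.0159 and 0.0151 by DESeq2).

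**Figure D2:**
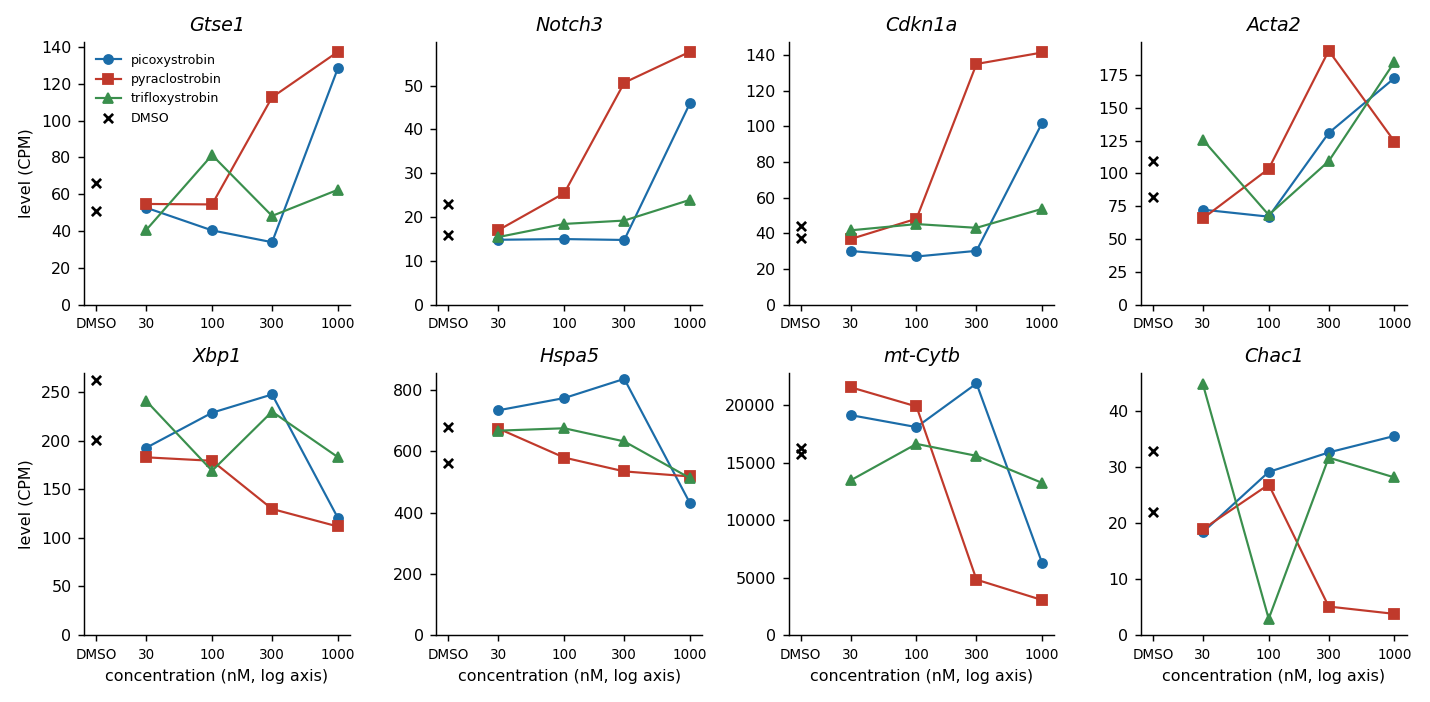
Level in CPM against concentration in nM (log axis) of 8 genes, with 1 line per compound and 1 point per library, and the DMSO libraries as crosses. Picoxystrobin steps between 300 and 1000 nM and pyraclostrobin between 100 and 300 nM in Notch3, Cdkn1a and mt-Cytb, and trifloxystrobin stays nearer to DMSO.

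Of the 40 p53 targets listed, 32 were tested. Of these, 19 were higher at an unadjusted p under 0.05, against 7.22% of all genes, and none was lower. The list was chosen with results of these libraries known and is not independent evidence of its direction. No member was called by edgeR, and DESeq2 called Gtse1, Psrc1, Phlda3 and Pidd1. The median log2 fold change was 0.44, against 0.00 over all genes tested. Single compounds had medians of 0.46 (picoxystrobin), 0.61 (pyraclostrobin) and 0.24 (trifloxystrobin), with 25, 29 and 24 members higher, whereas 5090, 4735 and 5442 of all 9786 genes were higher. At 1000 nM 14 members were above all 30 nM libraries, against 8.77% of all genes, and 1 was below, against 7.31%. The median over 2 compounds was between 0.35 and 0.55 when each compound was left out in turn, and it was 0.41 with the correction for GC content and length, with 19 members higher at an unadjusted p under 0.05.

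In the group of cell cycle arrest and feedback, 8 of 13 members tested were higher at an unadjusted p under 0.05, against 7.22% of all genes. Their median was 0.43. Cdkn1a (chr17:29090976-29100727) encodes the cyclin-dependent kinase inhibitor p21. It was at 30.1, 36.8 and 41.7 CPM at 30 nM and at 102, 141 and 53.8 CPM at 1000 nM, and the DMSO libraries were at 44.1 and 37.7 CPM. The groups did not overlap, but the trifloxystrobin step was small, and the log2 fold change was 1.37 ± 0.25 (adjusted p = 0.144 by edgeR and 0.203 by DESeq2). AC167363.2 overlaps the gene on the opposite strand. Ccng1, a cyclin induced by p53, was at 532, 543 and 384 CPM and then at 852, 2148 and 541 CPM, so the pyraclostrobin library alone was far above the rest. Trp53inp1, which promotes p53 activity, was at 185, 208 and 168 CPM and then at 368, 681 and 209 CPM. Mdm2, the ubiquitin ligase of p53, was 0.43 ± 0.17 higher, with 0.02 for trifloxystrobin alone. Sesn1 was -0.13 ± 0.12 (adjusted p = 0.745 by edgeR) and was the only member lower in all 3 compounds.

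In the group of apoptosis and death receptors, 10 of 15 members tested were higher at an unadjusted p under 0.05, against 7.22% of all genes. Their median was 0.47. Phlda3, an inhibitor of the kinase Akt, was at 89.3, 118 and 105 CPM at 30 nM and at 184, 204 and 136 CPM at 1000 nM (0.73 ± 0.14, adjusted p = 0.170 by edgeR and 0.00316 by DESeq2). Pidd1, which nucleates the caspase-2 platform, was at 10.5, 10.6 and 9.44 CPM and then at 22.5, 32.5 and 11.9 CPM (1.04 ± 0.22, adjusted p = 0.0216 by DESeq2). Both kept their groups apart. Bax, which opens the mitochondrial outer membrane, was 0.47 ± 0.15 higher and its groups overlapped. In the group of repair and nucleotide supply, 4 members were tested and 1 was higher at an unadjusted p under 0.05, against the same 7.22%.

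The window of 250 bases before and 50 bases after the RefSeq start (GRCm38.p6) was searched on both strands for a p53 half-site pair with a spacer of up to 13 bases. It was present in 1 of 26 members with a promoter (3.85%), Cdkn1a, against 0.074% of 27025 genes, and in none of the 34 promoters of genes called higher by DESeq2. The 60 bases around it, chr17:29090892-29090951 on the plus strand, are shown because this is the only member with the pair in its promoter window, and the capitals mark both half-sites and the spacer, from position -73 of the start.
Cdkn1a: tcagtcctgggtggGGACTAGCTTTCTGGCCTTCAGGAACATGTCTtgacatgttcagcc
More distant sites were not searched.

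Of 37 DNA replication genes tested, 26 were higher at an unadjusted p under 0.05, against 7.22% of all genes, and none was lower. The median log2 fold change was 0.42. The compound medians were 0.40, 0.58 and 0.13. DESeq2 called none of them, and the groups overlapped for every member, with the trifloxystrobin libraries low at both concentrations. Prim1, the catalytic subunit of primase, was at 101, 85.8 and 57.4 CPM at 30 nM and at 122, 200.4 and 75.3 CPM at 1000 nM. Rfc3, a subunit of the clamp loader, was at 31.6, 33.1 and 21.1 CPM and then at 47.8, 59.4 and 26.8 CPM. Without pyraclostrobin, 12 of the 37 members were higher at an unadjusted p under 0.05, against 8.28% of all genes. Without trifloxystrobin it was 24 members, against 4.89%.

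The mitosis and spindle list was wholly tested. All 38 members had a positive fold change, 20 at an unadjusted p under 0.05, against 7.22% of all genes higher. The groups overlapped for every member, whereas 8.77% of all genes were higher without overlap. The median was 0.33, with 0.41, 0.20 and 0.35 for the compounds. Without trifloxystrobin, 9 of the 38 were higher at an unadjusted p under 0.05, against 4.89% of all genes, and 35 had a positive fold change. That fit also has fewer libraries, so the lower count cannot be put down to that compound alone. Relative to the mean of the 12 libraries of the 3 compounds, the trifloxystrobin median of this list was -0.46 at 30 nM, 0.13 at 100 nM, -0.26 at 300 nM and -0.16 at 1000 nM. The step of trifloxystrobin from 30 to 1000 nM thus starts from the lowest of its 4 libraries, and its 100 nM library was above that at 1000 nM. DESeq2 called Aurkb, Ckap2, Prc1 and Cdk1. Aurkb, the kinase of the chromosomal passenger complex, was at 68.3, 69.5 and 46.9 CPM at 30 nM and at 123, 119 and 64.7 CPM at 1000 nM (0.70 ± 0.13, adjusted p = 0.144 by edgeR and 0.00316 by DESeq2). The trifloxystrobin library at 1000 nM was below the other compounds at 30 nM. Cdk1, the main kinase of mitotic entry, was at 323, 323 and 175 CPM and then at 457, 407 and 264 CPM, with the same position of trifloxystrobin. The clustered histone genes hardly entered, since 2 of 66 were tested.

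**Figure D3:**
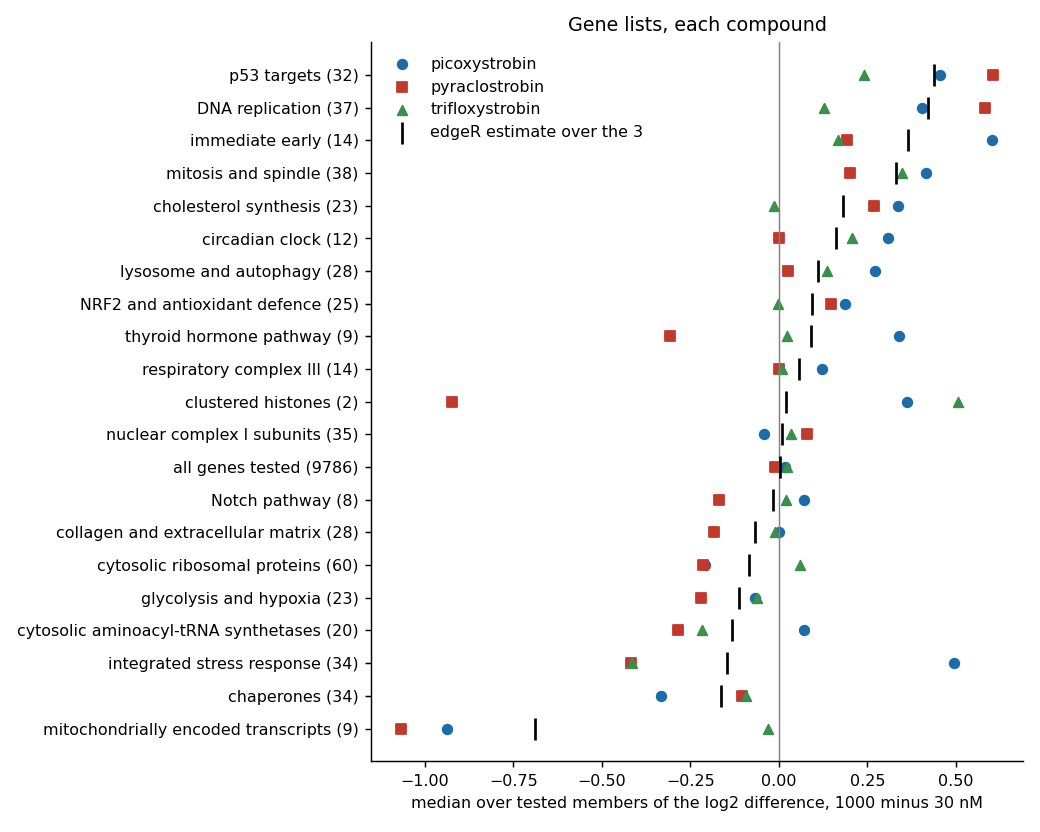
Median log2 difference between 1000 and 30 nM of each gene list, with 1 point per compound, a bar for the estimate of edgeR over the 3 and the number of members in parentheses. The p53, DNA replication and mitosis lists are to the right of 0 for the 3 compounds, whereas the integrated stress response is at 0.50 for picoxystrobin and at -0.42 for the others.

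Of 15 mitochondrially encoded transcripts listed, 9 were tested. At an unadjusted p under 0.05, 5 were lower, against 3.71% of all genes, and 1, mt-Rnr1, was higher, against 7.22%. The median was -0.69, with compound medians of -0.94, -1.07 and -0.03. The transcript of the target protein, mt-Cytb (chrM:14145-15288), was at 19152, 21579 and 13478 CPM at 30 nM and at 6238, 3046 and 13246 CPM at 1000 nM, and at 16285 and 15754 CPM in DMSO. Its log2 fold change was -1.50 ± 0.41 (adjusted p = 0.254 by edgeR and 0.405 by DESeq2), and trifloxystrobin contributed -0.03. mt-Nd2, a complex I subunit, was at 8724, 9290.4 and 6892 CPM and then at 4559, 4434 and 6628 CPM, and was the only member called by DESeq2 (-0.69 ± 0.21 by edgeR, adjusted p = 0.0176 by DESeq2). mt-Nd6, encoded on the other strand, was -1.11 ± 0.28 and overlaps mt-Nd5. mt-Co1 was unevenly placed around 0, with log2 differences of -0.18, 0.18 and 0.07, and the ribosomal RNA mt-Rnr1 was at 2081, 2494 and 2987 CPM and then at 4643, 9761 and 2201 CPM. mt-Co3, mt-Nd4l and mt-Atp8 were at 0 counts in the 6 libraries.

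Nuclear genes of the same complexes stayed near 0. Of 35 nuclear complex I subunits none was higher or lower at an unadjusted p under 0.05, with a median of 0.01. The complex III list of 14 tested genes, with mt-Cytb and the assembly factors included, had a median of 0.06. In it 1 was higher and 1 lower at an unadjusted p under 0.05, against 7.22% and 3.71% of all genes. Glycolysis and hypoxia genes had a median of -0.11, with 3 of 23 lower, against 3.71% of all genes, and none higher. The list of NRF2 targets and other antioxidant genes had 2 of 25 higher, against 7.22% of all genes, and a median of 0.09. Of its 16 NRF2 targets 1 was higher, with a median of 0.14, and of 9 other antioxidant genes 1, with a median of -0.08.

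The integrated stress response went different ways in the compounds. Of 34 members tested, 1 was higher and none lower at an unadjusted p under 0.05, against 7.22% and 3.71% of all genes. With picoxystrobin 32 of them were higher at 1000 nM and the median was 0.50, whereas 2 were higher with pyraclostrobin and 2 with trifloxystrobin, both with a median of -0.42. Without picoxystrobin, 25 members were lower at an unadjusted p under 0.05, against 3.71% of all genes. Chac1 (chr2:119351229-119354381), a glutathione-degrading enzyme, was at 18.4, 18.9 and 44.8 CPM at 30 nM and at 35.6, 3.79 and 28.1 CPM at 1000 nM. Trib3, a pseudokinase that feeds back on ATF4, was at 16.3, 13.6 and 58.4 CPM and then at 40.5, 7.63 and 31.9 CPM. Slc7a11, the cystine transporter, was at 15.2, 17.9 and 50.8 CPM and then at 32.8, 5.10 and 30.8 CPM. Trifloxystrobin was the highest of the compounds at 30 nM for each of these genes, and pyraclostrobin the lowest at 1000 nM. Atf3, a stress factor also induced by p53, was the exception with 0.49 ± 0.17 (adjusted p = 0.350 by edgeR) and no overlap.

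The levels at the concentrations in between were no steadier. Relative to the mean of the 12 libraries of these compounds, the median of the stress response list with trifloxystrobin was 0.72 at 30 nM, -0.44 at 100 nM, 0.43 at 300 nM and 0.30 at 1000 nM. With picoxystrobin it was -0.20, 0.16, 0.21 and 0.30, and with pyraclostrobin -0.19, 0.09, -0.55 and -0.67. The DMSO libraries were at 0.12 and 0.47, and the second of them holds the same counts as azoxystrobin at 100 nM. Trifloxystrobin at 100 nM thus stood apart from its neighbours, with Chac1 at 2.91 CPM between 44.8 and 31.7 CPM. The DNA replication list with trifloxystrobin was at -0.42, 0.18, -0.22 and -0.29 and the p53 list at -0.23, -0.05, -0.18 and -0.05, in the order of concentration. In the DMSO libraries the DNA replication list was at -0.10 and -0.29, the p53 list at -0.18 and -0.21 and the mitosis list at -0.10 and -0.36. The labels of the 30 and 100 nM libraries were kept as deposited. The sign of the trifloxystrobin difference in the stress response, DNA replication and mitosis lists depends on which of these libraries is the reference, since the 1000 nM median lies between them. For the p53 list the trifloxystrobin medians at 100 and 1000 nM were nearly equal, so its rise likewise depends on the 30 nM library as the reference. Without trifloxystrobin the stress response had a median of -0.03, with 2 of 34 members higher at an unadjusted p under 0.05, against 4.89% of all genes.

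The composite element of ATF4 and C/EBP factors, TGATGNAA on either strand, was searched in the same promoter windows after the values were seen. It was present in 11 of 30 members with a promoter (36.7%), against 4.51% of all genes. Each match is set in capitals in 60 bases before the start of 3 members whose levels differed between compounds, Chac1 at chr2:119351023-119351082 (plus strand), Slc7a11 at chr3:50443646-50443705 (minus strand) and Pycr1 at chr11:120643818-120643877 (minus strand), each written along the strand of its gene.
Chac1: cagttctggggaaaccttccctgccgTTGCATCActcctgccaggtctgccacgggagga
Slc7a11: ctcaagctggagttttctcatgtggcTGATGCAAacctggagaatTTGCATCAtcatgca
Pycr1: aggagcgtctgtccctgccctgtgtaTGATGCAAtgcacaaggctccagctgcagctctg
Pycr1, an enzyme of proline synthesis, was at 35.3, 34.2 and 79.4 CPM at 30 nM and at 39.0, 30.7 and 55.4 CPM at 1000 nM. The CCAAT box was in 70.5% of 61 promoters of DNA replication and mitosis genes, in 50% of the 34 promoters of genes called higher by DESeq2, and in 41.1% of all. The element TGACNNNGC was in 5.88% of the latter 34, against 14% of all.

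**Figure D4:**
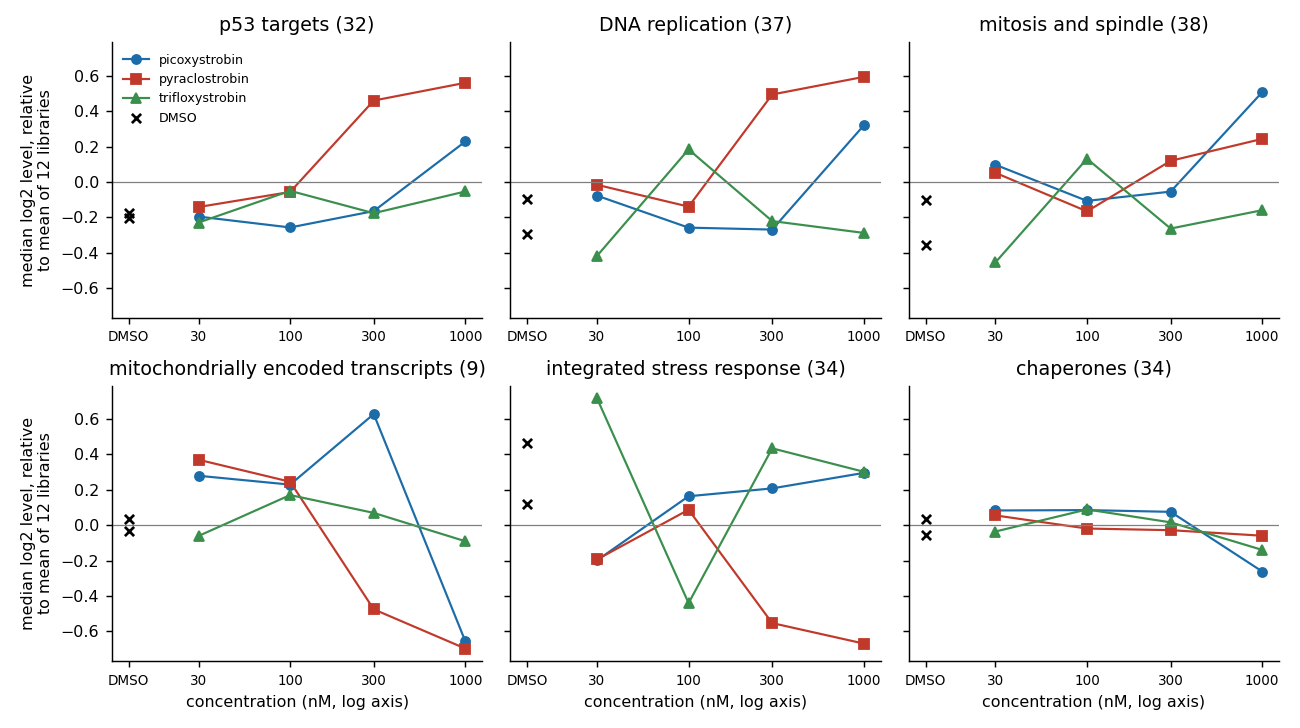
Median log2 level of 6 gene lists relative to the mean of the 12 libraries, against concentration in nM (log axis), with 1 line per compound and the DMSO libraries as crosses. The number of members is in parentheses. The stress response line of trifloxystrobin drops at 100 nM and returns at 300 nM, and its DNA replication line does the opposite.

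Of 16 chaperones of the endoplasmic reticulum, 7 were lower at an unadjusted p under 0.05, against 3.71% of all genes. With picoxystrobin, pyraclostrobin and trifloxystrobin 1, 6 and 2 of the 16 were higher. No other chaperone of the 34 tested was lower at that limit, and none was higher. The median over the 16 was -0.25, against -0.17 for the cytosol and -0.09 for mitochondria. Hspa5 (chr2:34771970-34777547), the main chaperone of the compartment, was at 734, 674 and 668 CPM at 30 nM and at 430.3, 518 and 513 CPM at 1000 nM, without overlap (-0.51 ± 0.13, adjusted p = 0.237 by edgeR and 0.0298 by DESeq2). Hsp90b1 was -0.42 ± 0.13, Calr, a calcium-binding lectin, -0.36 ± 0.13 and Pdia6, a disulfide isomerase, -0.37 ± 0.12. None of these passed either test between 1000 and 30 nM. In a trend on concentration over the 12 libraries, DESeq2 called Pdia6 (slope -0.25 per 10-fold, adjusted p = 0.0486) and Pdia4 (-0.19, adjusted p = 0.0277). Sdf2l1 and Dnajb9, which belong to the same response, were of mixed direction, with 0.14 and 0.11 for pyraclostrobin.

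Immediate early genes were higher in 7 of 14 members at an unadjusted p under 0.05, against 7.22% of all genes. Their median was 0.36, with no call by either tool between 1000 and 30 nM. In the trend on concentration over the 12 libraries, DESeq2 called Fos (slope 0.66 per 10-fold, adjusted p = 0.0181), Egr1 (0.50, adjusted p = 0.0227) and Dusp1 (0.36, adjusted p = 0.0402). Fos was at 6.90, 8.21 and 6.70 CPM at 30 nM and at 18.7, 17.2 and 9.12 CPM at 1000 nM, where counts are low. Dusp1, a phosphatase that ends MAP kinase signalling, was at 25.8, 31.9 and 21.5 CPM and then at 38.3, 38.0 and 39.0 CPM, with the 1000 nM libraries nearly level. Among cholesterol synthesis genes 5 of 23 were higher at an unadjusted p under 0.05, against 7.22% of all genes. They were led by Acat2, which condenses acetyl-CoA, at 0.51 ± 0.12 (adjusted p = 0.222 by edgeR and 0.0376 by DESeq2). Of 16 lysosomal genes tested, 7 were higher at that limit, against the same 7.22%, and of 12 autophagy genes 0 were. The medians were 0.28 and 0.03. Neu1, a sialidase, was at 0.57 ± 0.16 and Mcoln1, a calcium channel, at 0.41 ± 0.14.

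Of 28 genes of collagen and extracellular matrix tested, 2 were higher and 4 lower at an unadjusted p under 0.05. The shares of all genes were 7.22% and 3.71%, and the median of the list was -0.07. Tnc, the glycoprotein tenascin C, was at 153, 143 and 205 CPM at 30 nM and at 274, 227 and 254 CPM at 1000 nM (0.61 ± 0.13, adjusted p = 0.0151 by DESeq2), and Timp3, an inhibitor of matrix proteases, was 0.48 ± 0.14 higher. Of 11 collagens tested, 3 were lower at an unadjusted p under 0.05, and 4 were lower in all 3 compounds, against 15.1% of all genes. With picoxystrobin 5 of the 11 were higher, with pyraclostrobin none and with trifloxystrobin 5. Among those lower in each compound were Col1a1 at -0.43 ± 0.16, Col1a2 at -0.49 ± 0.16 and Col3a1 at -0.41 ± 0.15, none of them called. These collagens belong to the marker list of fibroblasts and pericytes. The sum of that list was lower at 1000 nM in each compound, but it includes them and is no separate observation. Acta2, of the same list, was higher, with 0.91. The part of that cell type was not tested. Ribosomal protein genes were lower in 6 of 60 at an unadjusted p under 0.05, led by Rpl10 with -0.58 ± 0.16, and had a median of -0.08. Cytosolic aminoacyl-tRNA synthetases were lower in 2 of 20, and 3.71% of all genes were lower at that limit. Clock genes were higher in 2 of 12, against 7.22% of all genes.

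None of the 9 genes tested of the thyroid hormone pathway had an unadjusted p under 0.05. Klf9, a direct target of the receptor, was at 28.3, 27.2 and 31.5 CPM at 30 nM and at 33.8, 29.8 and 30.6 CPM at 1000 nM (0.12 ± 0.14, adjusted p = 0.821 by edgeR). Thra, the gene of the overexpressed receptor, was 0.09 ± 0.14, and the reference gene Hprt was -0.10 ± 0.15. Both had mixed directions among compounds. Hr was below the minimum of 10 CPM.

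The compounds differed in the size of their step and in where it fell. Over all genes tested, the SD of the log2 difference between 1000 and 30 nM reached 0.370 with picoxystrobin, 0.346 with pyraclostrobin and 0.172 with trifloxystrobin. More than 2-fold higher were 75, 77 and 0 genes, and more than 2-fold lower 20, 49 and 0. Between neighbouring concentrations, picoxystrobin had an SD of 0.131, 0.186 and 0.506, with 179 genes more than 2-fold higher and 224 lower in the last step. Pyraclostrobin had 0.157, 0.293 and 0.157, with its widest step from 100 to 300 nM, and trifloxystrobin 0.266, 0.229 and 0.149. With 1 library at each point these are descriptions of libraries. The p53 list followed the same steps, with a median of 0.36 for picoxystrobin from 300 to 1000 nM and 0.51 for pyraclostrobin from 100 to 300 nM. Across genes, the log2 differences of picoxystrobin and trifloxystrobin had r = 0.409, picoxystrobin and pyraclostrobin 0.159, and pyraclostrobin and trifloxystrobin 0.151. With the correction for GC content and length these were 0.344, 0.398 and 0.209. These are descriptions over 9786 genes of 1 pair of libraries each, which share the dependence on GC content given above, and genes are not independent replicates.

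**Figure D5:**
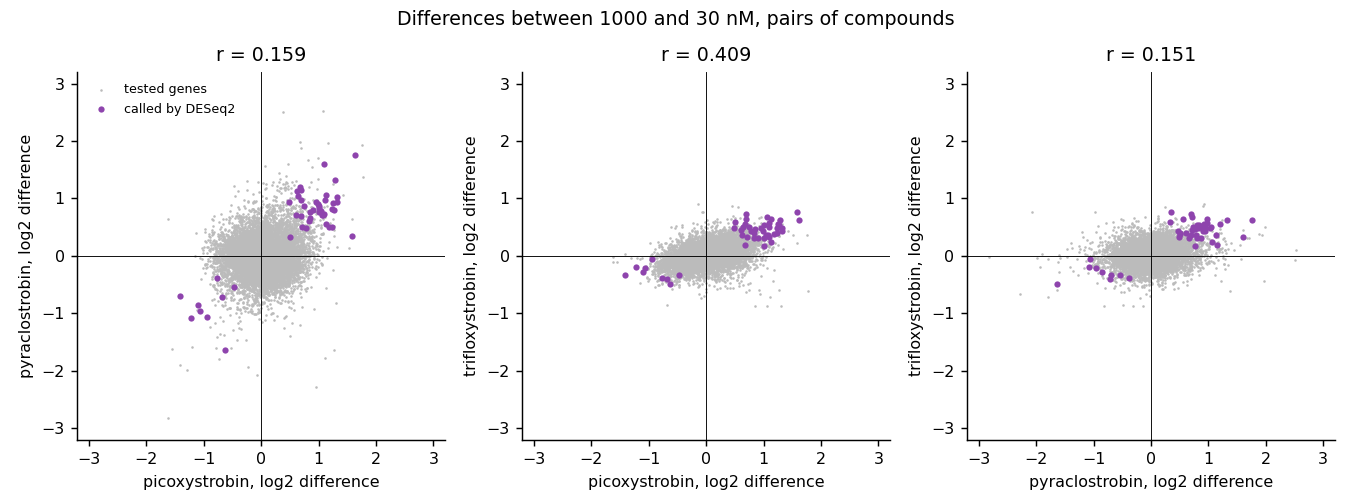
Log2 difference between 1000 and 30 nM of each gene in 1 compound against another, for the 3 pairs. DESeq2 calls are marked, and they fall in the quadrants of equal sign. The same libraries chose these calls, so their position is not independent support.

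A test of the difference between compounds was possible over the 12 libraries, as a difference of slopes per 10-fold of concentration, adjusted over all genes and the 3 pairs together. With 1 library at each point, its error is the scatter around a straight line per compound. That scatter includes any stepwise course as well as the spread between cultures, and these cannot be told apart. The test of edgeR called no difference in any pair (0%, lowest adjusted p = 0.737). DESeq2 called 4 genes for pyraclostrobin minus picoxystrobin (0.0410%), 0 (0%) for trifloxystrobin minus picoxystrobin and 4 for trifloxystrobin minus pyraclostrobin (0.0410%). At an unadjusted p under 0.05 pyraclostrobin was above picoxystrobin for 3.45% of genes and below for 6.91%. Trifloxystrobin was above picoxystrobin for 0.410% and below for 0.595%, and above pyraclostrobin for 5.16% and below for 3.77%. Hence the methoxyacrylate and the oximinoacetate were the pair with the fewest differences at that limit, which does not show that they act alike.

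The intervals were wide. For Gtse1 the slope of pyraclostrobin minus that of picoxystrobin was 0.18, with a 95% interval from -0.97 to 1.34. For Notch3 it was 0.19, from -0.62 to 1.01. For Cdkn1a trifloxystrobin minus pyraclostrobin was -1.24, from -2.26 to -0.23, and for Ccng1 -1.21, from -1.88 to -0.55. For mt-Cytb it was 2.08, from 0.84 to 3.32. All of these had an adjusted p of 0.737 or more by edgeR. For Ccng1 pyraclostrobin minus picoxystrobin was 0.98, from 0.33 to 1.62. Chac1 had -2.43 for the same pair, from -4.91 to 0.05. For that pair 8 of 34 stress response members were lower at an unadjusted p under 0.05, against 6.91% of all genes.

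The step from 100 to 300 nM was tested in the other 6 libraries of these compounds. Of 9716 genes none was called by edgeR (0%, lowest adjusted p = 0.140), with 3.98% higher and 2.92% lower at an unadjusted p under 0.05, and DESeq2 called Acta2 and Gm9625 (0.0206%). The p53 list had a median of 0.16 with 28 of 31 members positive, against 55.7% of all genes, and 1 had an unadjusted p under 0.05. Cdkn1a was 0.55 and Notch3 0.38 higher at 300 nM on the log2 scale, and Gtse1 0.03. A trend on log10 of the concentration over the 12 libraries shares all of these libraries. It called no gene by edgeR (0%, lowest adjusted p = 0.196), whereas 9.00% of 9751 genes had a positive and 5.31% a negative slope at an unadjusted p under 0.05. DESeq2 called 104 genes higher (1.07%) and 53 lower (0.544%). Of these 157 genes 26 were among the 48 of the comparison of 1000 with 30 nM, which is 16.6% of the former and 54.2% of the latter. The p53 list had 18 of 31 members with a positive slope at an unadjusted p under 0.05, and 13 without the picoxystrobin library at 1000 nM, a setting chosen after seeing the data. DNA replication had 18 of 37 and then 4, and mitosis 11 of 38 and then 3. That fit also has fewer libraries at the highest concentration, so the lower counts cannot be put down to that library alone.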

How the data were processed

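RNA was extracted from C17.2α cells, and total RNA libraries (SENSE kit, Lexogen) were sequenced from a single end on a NextSeq500. The submitters' processing notes name Bowtie2 2.3.2.2 and the build mm10. Reads were counted on genes with htseq-count, and the authors deposited raw counts per gene for each library, neither normalized nor pooled. The strand setting and the annotation are not given in the sources used here.

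The members and the gene lists were chosen with earlier results of these data known. Libraries were grouped by compound and concentration from their labels. The filter of the study's methods, an average above 10 CPM, was applied over the 6 libraries. Counts were scaled by TMM and tested two-sided in edgeR 4.0.16 (quasi-likelihood F test, R 4.3.3) with the compound as block, and p-values were adjusted by Benjamini-Hochberg over all genes tested, with a threshold of 0.05. The common dispersion was 0.0161, a biological coefficient of variation of 0.127, with 2 residual and 9.35 prior degrees of freedom. Standard errors are the absolute log2 fold change over the square root of F. Differences of a single compound use log2 CPM with a prior count of 2. All levels in CPM are on 1 scale over the libraries of these compounds and DMSO. Slopes were fitted on log10 of the concentration over 12 libraries. p-values measure the spread between these libraries. For the trend and the slopes that spread includes any departure from a straight line on log10 of the concentration. Counting error is of the order of that spread near the minimum and smaller above it.

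DESeq2 1.42.0 was an alternative, in which 759 genes had no adjusted p. The other alternatives were RLE size factors, filterByExpr or no filter, a robust fit, no block, each compound left out, 12 libraries in 1 fit, and a correction for GC content and length by natural splines of 4 degrees of freedom, entered as an offset. The fits were checked on simulated counts. Of 54658 symbols, 54092 matched GENCODE M21 (GRCm38), the source of positions, lengths and GC content. Promoters are from RefSeq (GRCm38.p6). Python 3.11.15, pandas 2.3.3 and matplotlib 3.10.9 were used for tables and figures. The genes named are the 10 higher and 10 lower genes of lowest p with 1 direction in the 3 compounds, the 2 members of lowest p in each list, Hr, Klf9, Thra and Hprt, and the 3 genes of lowest p for each pair of compounds. Members of lists beyond these were chosen after their values were seen, to show their roles. Each of the 66 pairs among the 12 libraries differed in at least 22355 genes, so each was counted as its own sample.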

Additional observations from a re-analysis of the deposited data

Results flagged for a closer look

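DESeq2 found a difference between the concentration slopes of 2 compounds for 8 pairs of gene and compounds, over the 12 libraries and adjusted over the 3 pairs of compounds together. Values are differences of the log2 slope per 10-fold of concentration. For pyraclostrobin minus picoxystrobin it was -1.33 for Cdh13, an atypical cadherin (adjusted p = 0.0477), -1.41 for Gpc6, a glypican (adjusted p = 0.0375), -1.48 for Hist1h1c, a linker histone (adjusted p = 0.0477), and -1.28 for Sfmbt2, a Polycomb group protein (adjusted p = 0.0480). For trifloxystrobin minus pyraclostrobin it was 1.10 for Gm12751 (adjusted p = 0.00821), 2.06 for Hist1h1c (adjusted p = 2.32e-05), 1.29 for Sfmbt2 (adjusted p = 0.0480) and -1.31 for Snapc5, a subunit of the snRNA activating complex (adjusted p = 0.0477). The quasi-likelihood test of edgeR gave each of them the same sign and an adjusted p of 0.737.

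Hist1h1c was at 22.3, 24.5, 25.0 and 21.2 CPM with picoxystrobin at 30, 100, 300 and 1000 nM, at 20.2, 21.7, 8.21 and 4.70 CPM with pyraclostrobin, and at 14.6, 14.8, 19.9 and 25.0 CPM with trifloxystrobin. Gpc6 was at 33.3, 35.2, 39.7 and 47.4 CPM with picoxystrobin, at 35.3, 42.3, 18.8 and 13.3 CPM with pyraclostrobin, and at 39.4, 32.7, 39.7 and 46 CPM with trifloxystrobin. Gm12751 was at 48.9, 46.1, 23.1 and 17.7 CPM with pyraclostrobin and between 40 and 48.3 CPM in the other 8 libraries. The low values were those of pyraclostrobin at 300 and 1000 nM.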

How the results depend on the processing

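The number of genes called between 1000 and 30 nM was 0 also with RLE size factors, a robust fit, the correction for GC content and length, 12 libraries in 1 fit, and without the block. It was 48 with DESeq2, 13 with filterByExpr, 335 with no filter on low counts (202 of them over 10 CPM), and 59 to 102 when 1 compound was left out. These were 86 without picoxystrobin, 59 without pyraclostrobin and 102 without trifloxystrobin, of which 28, 25 and 33 were among the 48. Between 300 and 100 nM it was 2 with DESeq2, 48 with no filter and 0 to 26 with a compound left out. For the trend it was 157 with DESeq2 and 383 with no filter. For the slope differences it was 4, 0 and 4 with DESeq2 and 123, 16 and 156 with no filter. Without picoxystrobin at 1000 nM, and for slopes also without pyraclostrobin at 1000 nM, both chosen after seeing the data, it was 0. With no filter 27802 genes were tested, and with filterByExpr 14956. The cause of the other changes was not tested.

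Samples with the same compound at 30 and 1000 nM did not deviate together in every pair (r = -0.379, 0.176 and 0.440 for picoxystrobin, pyraclostrobin and trifloxystrobin), so the pairing by compound did not meet the criterion of a correlation over 0.1 in every pair. Without the replicate block 1015 genes had an unadjusted p under 0.05, against 1070 with it.

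Signs of single genes changed in these cases. With the correction for GC content and length Thra was -0.0089. With 1 compound left out, Thra was between -0.083 (without picoxystrobin) and 0.25, Hprt between -0.35 and 0.068 (without picoxystrobin), Rps7 between -0.34 and 0.027 (without picoxystrobin), and Neat1 between -0.083 (without pyraclostrobin; -0.049 without picoxystrobin) and 0.44 (without trifloxystrobin). Hist1h1c was between -1.03 and 0.33, Gpc6 between -0.56 and 0.35, Det1 between -0.41 and 0.25, Snhg15 between -0.34 and 0.41 and Tmem230 between -0.30 and 0.36, with the opposite sign to that over the 3 compounds without pyraclostrobin. The median of the integrated stress response was 0.03 without pyraclostrobin and -0.44 without picoxystrobin. Depth limits genes near 10 CPM.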
